A study of Mus musculus with 8 samples.

Results

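Matrix metalloproteinases (MMPs), ADAMTS proteinases and the tissue inhibitors of metalloproteinases (TIMPs) were examined in single bone and bone marrow stromal cells of adult mice. The set held 10 genes, Mmp2, Mmp9, Mmp13, Mmp14, Mmp16, Adamts1, Adamts5, Timp1, Timp2 and Timp3, chosen by symbol from the 32285 genes of the count matrices, and each was matched once in all 8 libraries. The mice were females with floxed alleles of the SOXC genes (Sox4 fl/fl, with Sox11 fl/fl and with Sox12 fl/fl), either without Cre (controls) or with OsxCre (SOXC OsxCre mutants), aged 7 or 13 weeks, with 2 mice in each genotype and age group and 1 library per mouse. OsxCre is a Cre transgene that tetracyclines repress and that is mainly active in the osteoblast lineage, and doxycycline food kept it silent until about weaning. All controls lacked the transgene, so an effect of OsxCre itself cannot be told apart from that of SOXC loss. Shafts of femurs and tibiae were scraped to remove periosteum, flushed of marrow, digested, and depleted of haematopoietic cells with magnetic beads before droplet sequencing with 3′ chemistry.

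MMPs are zinc proteinases that cut collagens, gelatin and other matrix proteins, ADAMTS proteinases cut proteoglycans such as aggrecan and versican, and TIMPs block the active site of these enzymes. Most of the enzymes are made as inactive proenzymes, so a transcript level is not a level of activity. In bone they open matrix for marrow, vessels and growth plate cartilage to be remodelled, and MMP13 is the collagenase best known from osteoblast lineage cells and hypertrophic chondrocytes, where RUNX2 and AP-1 factors act at its promoter.

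The genes lie on 9 chromosomes of the mouse genome (GRCm38, GENCODE vM21). Mmp2 is on chromosome 8 (92827291 to 92853420, plus strand), Mmp9 on 2 (164940780 to 164955850, plus), Mmp13 on 9 (7272514 to 7283331, plus), Mmp14 on 14 (54431612 to 54445364, plus) and Mmp16 on 4 (17852893 to 18119145, plus). Adamts1 (85793827 to 85803113, minus) and Adamts5 (85856173 to 85901828, minus) are neighbours on chromosome 16, 53060 bases apart. Timp1 is on X (20870166 to 20874735, plus), Timp2 on 11 (118301069 to 118355740, minus) and Timp3 on 10 (86300372 to 86349506, plus). Timp1 lies within Syn1 and Timp3 within Syn3, in each case on the opposite strand, and Timp2 overlaps Cep295nl on the same strand, so reads of these pairs may be divided between the genes.

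Promoters of 6 of the 10 genes were found in RefSeq (GRCm38.p6), each running from 250 bases before the start to 50 bases after it. The 3 below belong to genes whose levels passed the test in the main comparisons that follow. They are also the only ones of the 6 with a match. Timp3, which passed only in a further fit, had none and is not printed. Capitals mark matches, on either strand, to the letters TGAGTCA (AP-1), TGTGGT (RUNX), AACAAAG (SOX) or AACAAT (SOX). The SOX motifs share their opening letters but cannot match at the same place, and the 4 motifs were found in 5.2%, 16.8%, 5.85% and 10.7% of 32851 promoters of the same length.
Mmp13 promoter, chr9:7272264-7272563, plus strand: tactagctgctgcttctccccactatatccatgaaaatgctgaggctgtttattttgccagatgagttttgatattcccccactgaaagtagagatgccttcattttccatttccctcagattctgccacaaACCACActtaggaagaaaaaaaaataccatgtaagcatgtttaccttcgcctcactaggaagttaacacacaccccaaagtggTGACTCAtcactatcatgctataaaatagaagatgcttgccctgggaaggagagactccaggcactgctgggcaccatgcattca
Mmp14 promoter, chr14:54431348-54431647, plus strand: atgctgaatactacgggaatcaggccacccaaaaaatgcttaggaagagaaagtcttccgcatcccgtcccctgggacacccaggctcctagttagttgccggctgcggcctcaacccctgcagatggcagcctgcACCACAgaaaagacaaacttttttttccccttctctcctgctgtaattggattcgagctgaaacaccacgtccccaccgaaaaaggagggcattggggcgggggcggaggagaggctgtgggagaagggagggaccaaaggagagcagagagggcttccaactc
Timp1 promoter, chrX:20869916-20870215, plus strand: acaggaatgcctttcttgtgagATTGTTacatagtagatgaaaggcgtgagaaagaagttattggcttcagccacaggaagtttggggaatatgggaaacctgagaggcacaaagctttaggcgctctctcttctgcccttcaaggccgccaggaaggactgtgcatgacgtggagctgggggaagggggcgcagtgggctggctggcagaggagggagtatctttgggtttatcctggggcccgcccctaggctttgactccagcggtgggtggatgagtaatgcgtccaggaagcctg
In the Mmp13 promoter the AP-1 letters began 35 bases before the start and the RUNX letters 118 bases before it. The Mmp14 promoter held the RUNX letters 114 bases before its start, and the Timp1 promoter held AACAAT 228 bases before its start, all read on the minus strand. None of the 4 motifs was in this window of Adamts1, Timp2 or Timp3. A match of letters describes the sequence and does not show a bound site.

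Between 6410 and 8753 cells were kept per library (59629 in all), with median UMI counts per cell of 11508 to 13146 in the replicate 1 libraries and 7066 to 8124 in the replicate 2 libraries, so the replicate numbers also parted deeper from shallower libraries. Cells were grouped into 32 clusters without any Mmp, Adamts, Adam or Timp gene, and 47457 cells fell into 12 classes named by their markers, each called "like" its cell type. No cluster was named as osteoclasts, macrophages or granulocytes. Libraries shared 437 barcodes, held by 877 cells (1.47%). Sox4, the main SOXC gene in these cells, was at 203, 168, 189 and 170 CPM in OB-like cells of the controls and at 58.8, 49.6, 57.9 and 79.0 CPM in the mutants (log2 fold change −1.58, SE 0.13, edgeR adjusted p = 0.00076). It was lower in the mutants in Lepr+ MSC-like (−1.28, adjusted p = 0.00762), Lepr+ OP-like (−1.36, adjusted p = 0.000132) and preOB-like cells (−1.42, adjusted p = 0.000369) but did not pass the test in endothelial-like cells (−0.23, adjusted p = 1, edgeR). Sox12 was also lower in OB-like cells (−2.06, adjusted p = 0.00269), whereas Sox11 was at or below 0.242 CPM in OB-like cells of all 8 mice.

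Levels are CPM, the UMIs of a gene as a share of all UMIs summed over the cells of a class in a mouse, scaled by TMM, and are given as mean ± SD over the 4 control mice unless 3 are named. They count transcript ends without regard to length and are compared between cell types of 1 gene, not between genes. The classes run from mesenchymal stem cells (Sca1+ MSC-like and Lepr+ MSC-like) through osteoprogenitors (Lepr+ OP-like) and preosteoblasts (preOB-like, with a proliferating class) to osteoblasts (OB-like). Growth plate chondrocytes (GPC-like and hypertrophic GPC-like), pericyte-like, endothelial-like, erythroid-like and haematopoietic progenitor-like cells made up the rest. Sca1+ MSC-like cells numbered 9 to 163 per mouse, and the control of 13 weeks with 9 was left out of that class. The paper states that its own Sca1+ cells may in part stem from periosteum left on the bone. The source of the class here was not tested. Likewise, the mutant of 7 weeks with 7 proliferating preOB-like cells was left out of that class.

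**Figure D1:**
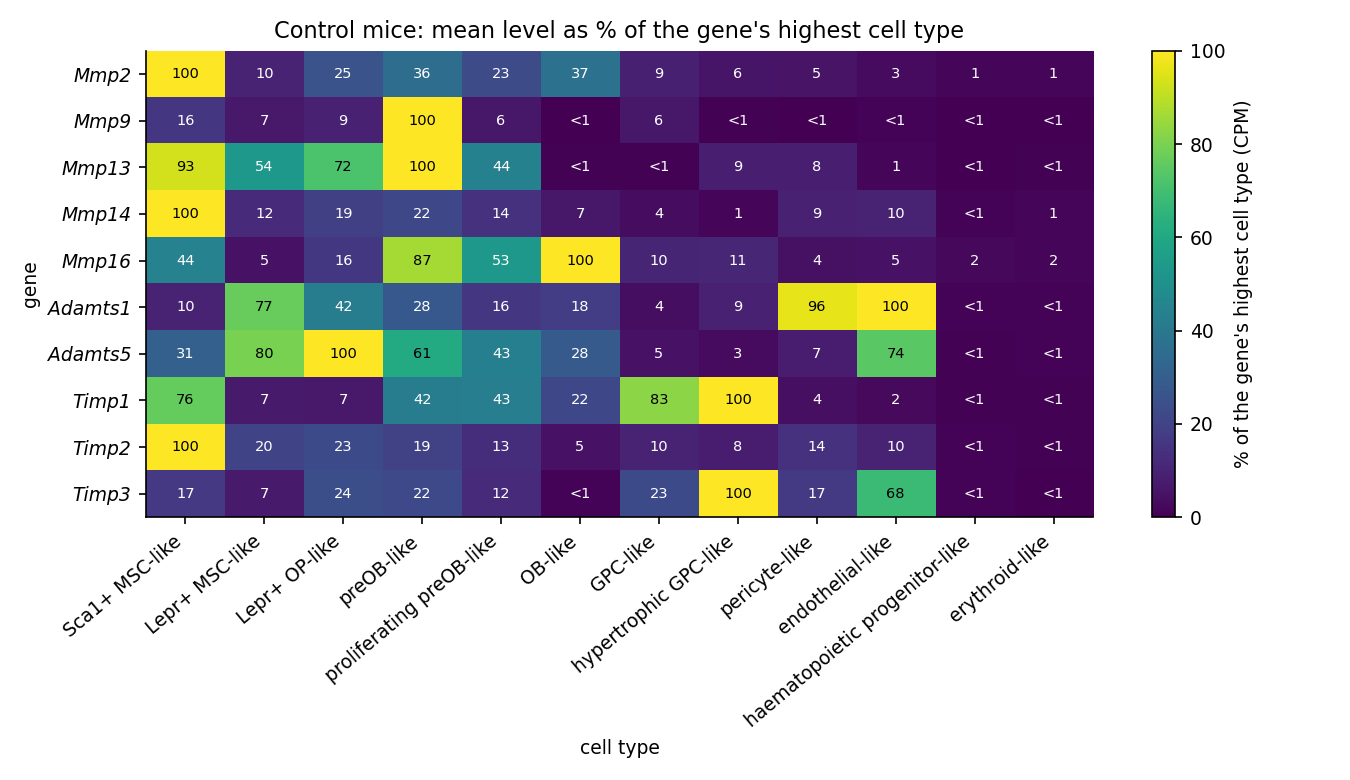
Mean level of each gene (rows) in each cell type (columns) in the control mice, as a percent of the CPM in the gene's highest cell type. Mmp13 stood at 100% in preOB-like cells but at 0.491% in OB-like cells, whereas Mmp16 was at 86.5% and 100% in these classes.

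The gelatinases differed in how widely they were found. Mmp2, the gelatinase made by fibroblasts and stromal cells, was highest in Sca1+ MSC-like cells, at 1380, 721 and 949 CPM in the 3 controls measured, above every other class. OB-like (378 ± 56.1 CPM), preOB-like (364 ± 121) and Lepr+ OP-like cells (259 ± 79.3) followed with overlapping ranges, and Lepr+ MSC-like cells held 98.3 ± 18.1 CPM. Mmp9, the gelatinase best known from osteoclasts and leukocytes, was highest in preOB-like cells, at 220, 55.3, 60.7 and 369 CPM in the controls. Its range in preOB-like cells overlapped that in Sca1+ MSC-like cells, and in OB-like cells it stood at 0.345 ± 0.0997 CPM.

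Mmp13, the collagenase of the set, was a gene of the progenitors. The 4 controls had 1481, 1835, 3454 and 4794 CPM in preOB-like cells, 1232, 1579, 3022 and 2469 CPM in Lepr+ OP-like cells and 1521, 2330, 1255 and 1082 CPM in Lepr+ MSC-like cells. The 3 classes overlapped with each other and with Sca1+ MSC-like cells (2693 ± 1257, n = 3) and proliferating preOB-like cells (1268 ± 1201). In OB-like cells the controls had 9.21, 12.5, 21.0 and 14.2 CPM. These values overlapped those of haematopoietic progenitor-like (7.13 to 14.7 CPM) and erythroid-like cells (4.97 to 22.7 CPM). OB-like cells were not alike, since their cluster 4 held 14, 70.6, 43.7 and 47.3 CPM in the controls without TMM scaling, against 7 to 11 CPM in cluster 1, a ratio of 2.01 to 10.1 over the 8 mice. Hypertrophic GPC-like cells held 246 ± 114 CPM, against 13.8 ± 9.39 CPM in the other GPC-like cells.

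Both membrane-type enzymes were higher in preOB-like than in Lepr+ MSC-like cells, without overlap, and they parted in OB-like and Sca1+ MSC-like cells. Mmp14, which also activates the MMP2 proenzyme, was highest in Sca1+ MSC-like cells (2113, 699 and 2640 CPM, n = 3), followed by preOB-like (392 ± 68.3) and Lepr+ OP-like cells (346 ± 51.5), with OB-like cells at 120 ± 14.4 CPM. Mmp16, a related membrane-bound enzyme, was highest in OB-like cells, at 120, 108, 123 and 111 CPM in the controls. It overlapped preOB-like cells (99.5 ± 32.7) and was at 18.5 ± 4.21 CPM in Lepr+ OP-like and 5.53 ± 1.23 CPM in Lepr+ MSC-like cells, where the ranges did not overlap with the osteoblast classes.

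The proteoglycan-cutting enzymes shared the stromal and vascular classes. Adamts1 was highest in endothelial-like (1310, 639, 863 and 995 CPM), pericyte-like (915 ± 120) and Lepr+ MSC-like cells (731 ± 214), which overlapped, and lower without overlap in Lepr+ OP-like cells (403 ± 111). Adamts5, the main aggrecanase of mouse cartilage, was highest in Lepr+ OP-like (552, 472, 487 and 608 CPM), Lepr+ MSC-like (424 ± 67.5) and endothelial-like cells (394 ± 140). Pericyte-like cells, which were among the highest for Adamts1, held 39.5 ± 21.3 CPM of Adamts5. Both genes were low in GPC-like cells, at 36.6 ± 5.35 and 26.2 ± 4.70 CPM.

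Of the inhibitors, Timp1 and Timp3 were highest in hypertrophic GPC-like cells and Timp2 in Sca1+ MSC-like cells. Timp1 was highest in hypertrophic GPC-like (728 ± 114 CPM), GPC-like (602 ± 77.8) and Sca1+ MSC-like cells (555 ± 142, n = 3), which overlapped. PreOB-like (307 ± 137) and OB-like cells (158 ± 37.7) followed, and Lepr+ OP-like (50.2 ± 14) and Lepr+ MSC-like cells (52.1 ± 26.6) lay below OB-like cells without overlap. Timp2, which can form a complex with MMP14 and the MMP2 proenzyme, was highest in Sca1+ MSC-like cells (2485, 940 and 2366 CPM, n = 3), the class in which Mmp2 and Mmp14 also had their highest levels. Timp3, the inhibitor that binds to the matrix and also blocks ADAMTS enzymes, was highest in hypertrophic GPC-like (1575, 1600, 2238 and 2339 CPM) and endothelial-like cells (1322 ± 355). In OB-like cells Timp3 was at 15.6 ± 5.30 CPM, overlapping the 15.4 ± 2.91 CPM of haematopoietic progenitor-like cells.

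OB-like cells were made of several clusters, and the ADAMTS genes differed widely between them. Levels within single clusters are CPM without TMM scaling and are a description, since the clusters come from the same cells. Adamts1 was at 341 ± 16.3 CPM in cluster 0, 325 ± 59.4 in cluster 10 and 20.5 ± 4.26 in cluster 2 (controls). Adamts5 was at 309 ± 56.5, 323 ± 36.4 and 34.0 ± 3.96 CPM in the same clusters. The ratio of cluster 0 to cluster 2 was 10.5 to 21.5 for Adamts1 and 5.26 to 10.0 for Adamts5, above 1 in all 8 mice. Cluster 0 held 27.5% to 32.8% of OB-like cells in the controls and 24.5% to 34.5% in the mutants, and cluster 2 14.4% to 21.6% and 16.1% to 22.6%. The clusters thus had overlapping shares in both genotypes.

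**Figure D2:**
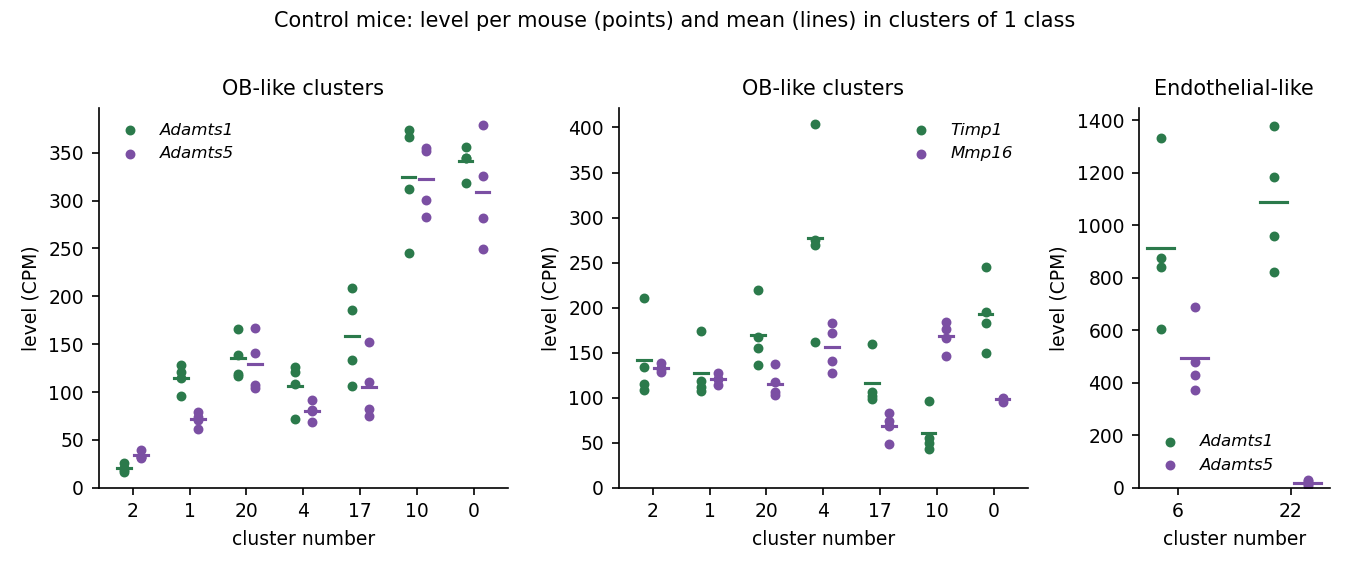
Level in CPM (points, 1 per control mouse; lines, means) of Adamts1 and Adamts5 (left and right) and of Timp1 and Mmp16 (middle) in the clusters of OB-like and endothelial-like cells. Adamts1 and Adamts5 were high together in clusters 0 and 10 and parted in endothelial-like cluster 22, where Adamts5 was at 19.4 CPM.

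The other members divided the OB-like clusters differently. Timp1 was at 278 ± 99.0 CPM in cluster 4 and 61.2 ± 24.2 CPM in cluster 10, a ratio of 3.11 to 5.52 over the 8 mice. Mmp16 was at 156 ± 25.9 and 168 ± 16.1 CPM in these clusters and at 68.4 ± 14.6 CPM in cluster 17. Mmp14 had its highest value in cluster 17 (213 ± 37.9 CPM), as did Timp2 (156 ± 44.1 CPM), whereas Mmp2 ranged only from 332 ± 43.3 to 472 ± 64.5 CPM. Endothelial-like cells consisted of 2 clusters with overlapping Adamts1 (914 ± 304 CPM in cluster 6 and 1087 ± 246 CPM in cluster 22). Within mice the ratio of cluster 6 to cluster 22 was 0.734 to 1.02 for Adamts1, and cluster 6 was the higher in 1 of 8 mice. Adamts5 was at 493 ± 138 CPM in cluster 6, led by Fabp4, Cdh5 and Flt1, and at 19.4 ± 11 CPM in cluster 22, led by Ptprb, Ly6c1 and Cldn5, a ratio of 12.3 to 72.8 over the 8 mice.

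Across the 12 cell types, the genes whose mean control levels (log2 of CPM + 1) were most like those of a member were named by Pearson correlation among 9536 genes that reached 20 CPM in some type. These are descriptions over 12 points that share the same libraries. Mmp16 was closest to Cdo1 (0.97), Creb3l1 (0.96) and Ccn4 (0.96), Mmp13 to Podnl1, Cpxm1 and Fbln1 (0.92 each), and Mmp2 to B3gnt9 (0.96), Scrn1 (0.95) and Fap (0.94). Mmp14 was closest to Purg (0.96), Cmtm4 and Pcyox1 (0.95 each), and Mmp9 to Apol6, Fancc (0.87 each) and Sftpa1 (0.86). Adamts1 was closest to Arid5b (0.98), Tcf7l1 and Dlgap4 (0.97 each), and Adamts5 to Efnb1, Stox2 (0.98 each) and Hfe (0.97). Timp1 was closest to Dap (0.96), Arfgap3 and Wnt5b (0.95 each), and Timp2 to Htra1 (0.98), Tmem98 and Slc17a5 (0.96 each). Timp3 was closest to Syn3 (0.97), the gene that contains it on the other strand, and then to Sgk1 and Rtn4 (0.91 each). Syn3 was at 34.5 ± 15.1 CPM in hypertrophic GPC-like cells and 0.213 ± 0.0806 CPM in OB-like cells, or 0.874 to 3.54 Syn3 UMIs per 100 of Timp3 over the 12 types, so the 2 genes may not have been counted apart. Among the members themselves, the highest correlations were those of Mmp2 and Mmp16 (0.87), Mmp14 and Timp2 (0.86), Mmp2 and Mmp14 (0.82), Mmp9 and Mmp13 (0.81), Mmp14 and Adamts5 (0.81) and Adamts1 and Adamts5 (0.80), and the lowest those of Mmp16 and Timp3 (0.15) and Adamts1 and Timp1 (0.16).

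The loss of SOXC was compared with the controls over both ages, with 4 mice against 4 in 10 types and 4 against 3 in Sca1+ MSC-like and proliferating preOB-like cells, and few members passed the test. Timp1 was higher and Mmp9 was lower in Lepr+ OP-like cells of the mutants, and these were the 2 calls among 112 pairs of gene and cell type tested (edgeR, adjusted p at or under 0.05 over all genes of the type). An unadjusted p under 0.05 was found for 23 pairs, and DESeq2 called 1. The shares of all genes called, here and below, are those of edgeR calls. None was set beside counts of unadjusted p values or of DESeq2 calls, so those counts are only a description. Over all genes and types 0.339% were called, and in Lepr+ OP-like cells 0.664%. In the other types the share of all genes called was 1.34% in OB-like, 0.891% in preOB-like, 0.2% in Lepr+ MSC-like and 0.00884% in hypertrophic GPC-like cells, and 0% in proliferating preOB-like, Sca1+ MSC-like, GPC-like, pericyte-like, endothelial-like, haematopoietic progenitor-like and erythroid-like cells. The members' median log2 fold change per type was −0.16 to 0.23, beside −0.04 to 0.02 for all genes tested.

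In 7 cell types, mice that shared an age and a replicate number deviated together from their group means (correlations of 0.131 to 0.406), and the methods describe pairs of sisters, although no label ties a number to a pair, so the fit with the replicate number as a block is given where it changed a call. It called 8 of 66 pairs over both ages in these types, beside 2.64% of all genes. The share of all genes called with the block was 8.23% in OB-like, 2.83% in preOB-like, 3.75% in Lepr+ OP-like, 0.835% in Lepr+ MSC-like, 0.0187% in endothelial-like, 0.239% in haematopoietic progenitor-like and 0.0646% in erythroid-like cells.

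**Figure D3:**
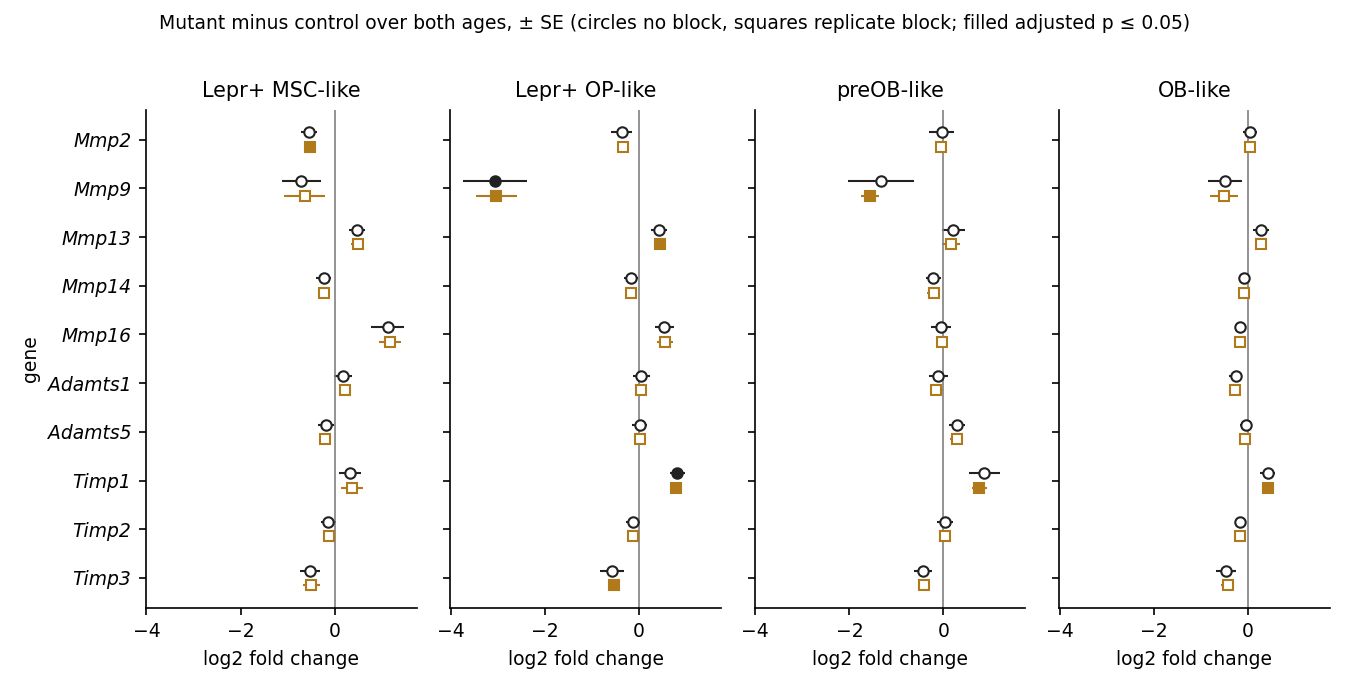
Log2 fold change of mutant over control (x axis, ± SE from edgeR) of each gene in 4 cell types, without (circles) and with (squares) the replicate block, filled where the adjusted p was at or under 0.05. Timp1 stood to the right of 0 and Timp3 and Mmp9 to the left in all 4 types, with filled circles in Lepr+ OP-like cells at 0.81 for Timp1 and −3.07 for Mmp9.

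Timp1, a secreted inhibitor of most MMPs, was at 37.3 and 39.7 CPM in Lepr+ OP-like cells of the controls of 7 weeks and at 57.9 and 66.1 CPM at 13 weeks. The mutants had 58.7 and 92.5 CPM at 7 weeks and 96.5 and 97.1 CPM at 13 weeks. Every mutant was above both controls of its own age, and 1 mutant of 7 weeks lay within the range of the older controls. The log2 fold change was 0.81 (SE 0.16, adjusted p = 0.0257, edgeR). It ranged from 0.62 to 0.95 when each mouse was left out and kept its call in 1 of these 8 fits, that without the replicate 1 mutant of 7 weeks. The call was lost with no integration (0.67, adjusted p = 0.456, edgeR), where the class held 4635 instead of 2400 cells. The change was 1.37 (adjusted p = 0.000618, edgeR) with a mitochondrial limit of 5%.

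The same direction was seen further along the lineage. In preOB-like cells Timp1 was at 161, 287, 288 and 492 CPM in the controls and 372, 580, 249 and 968 CPM in the mutants, with overlap (log2 fold change 0.87, SE 0.33, adjusted p = 0.394). It was 0.23 (adjusted p = 0.843) without the replicate 2 mutant of 13 weeks and 1.20 (adjusted p = 0.0435, edgeR) without the replicate 1 mutant of 13 weeks, and lay between these values without each other mouse. In OB-like cells the controls had 148, 208, 159 and 117 CPM and the mutants 187, 267, 197 and 189 CPM, and 3 of 4 controls lay below all mutants (0.42, SE 0.16, adjusted p = 0.339, edgeR). With the replicate block, both passed the test (preOB-like 0.76, SE 0.16, adjusted p = 0.00759; OB-like 0.43, SE 0.07, adjusted p = 0.00523), as did Lepr+ OP-like cells (0.78, SE 0.12, adjusted p = 7.72e-05, edgeR). In Sca1+ MSC-like cells the controls had 714, 509 and 442 CPM and the mutants 664, 930, 1112 and 2107 CPM (1.13, SE 0.32, adjusted p = 0.911, edgeR). In the cartilage classes, where Timp1 was highest, the mutants' means of 602 CPM (GPC-like) and 726 CPM (hypertrophic GPC-like) stood beside 602 and 728 CPM in the controls.

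Markers of the cells with the most Timp1 were read beside these values. In Lepr+ OP-like cells the summed level of 12 GPC markers, all over 1 CPM, was 372 to 439 CPM in the controls and 269 to 318 CPM in the mutants, and that of 12 hypertrophic GPC markers, 11 over 1 CPM, was 89.1 to 176 CPM and 92.1 to 139 CPM. The 16 OB markers, all over 1 CPM, summed in Lepr+ OP-like cells to 3962, 3596, 5155 and 2848 CPM in the controls and 4476, 4708, 6051 and 3828 CPM in the mutants. In preOB-like cells the same OB markers summed to 8568, 5903, 12498 and 6810 CPM in the controls and 15389, 8225, 24404 and 9546 CPM in the mutants. In both classes each mutant was above the control of its age and number. The 13 Sca1+ MSC markers, 9 over 1 CPM and Clec3b at 0, summed in Lepr+ OP-like cells to 384, 395, 422 and 283 CPM in the controls and 442, 405, 428 and 315 CPM in the mutants, so that each mutant was above the control of its age and number. In OB-like cells, where 5 of the 13 were over 1 CPM, they summed to 66.1, 65.7, 33.7 and 30.9 CPM in the controls and 103, 128, 92.1 and 43 CPM in the mutants, and each mutant was above both controls of its age. Of these sums Col3a1 alone held 53.3, 52.8, 14.4 and 19.1 CPM in the controls and 91.1, 114, 72.7 and 29.6 CPM in the mutants. The higher sums thus came largely from this 1 gene. In preOB-like cells the Sca1+ MSC markers summed to 697 to 2159 CPM and 623 to 3093 CPM. The GPC markers summed in OB-like cells to 124 to 143 CPM in the controls and 112 to 132 CPM in the mutants. Also in OB-like cells, the 8 osteoclast markers, 3 over 1 CPM, summed to 128 to 156 CPM in the controls and 173 to 209 CPM in the mutants. The 12 granulocyte or monocyte markers, 6 over 1 CPM, summed to 29.2 to 68 CPM and 14.2 to 25.9 CPM. Neither of these 2 lists overlapped between genotypes. The part of the transcripts of all these markers in the Timp1 values was not tested.

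**Figure D4:**
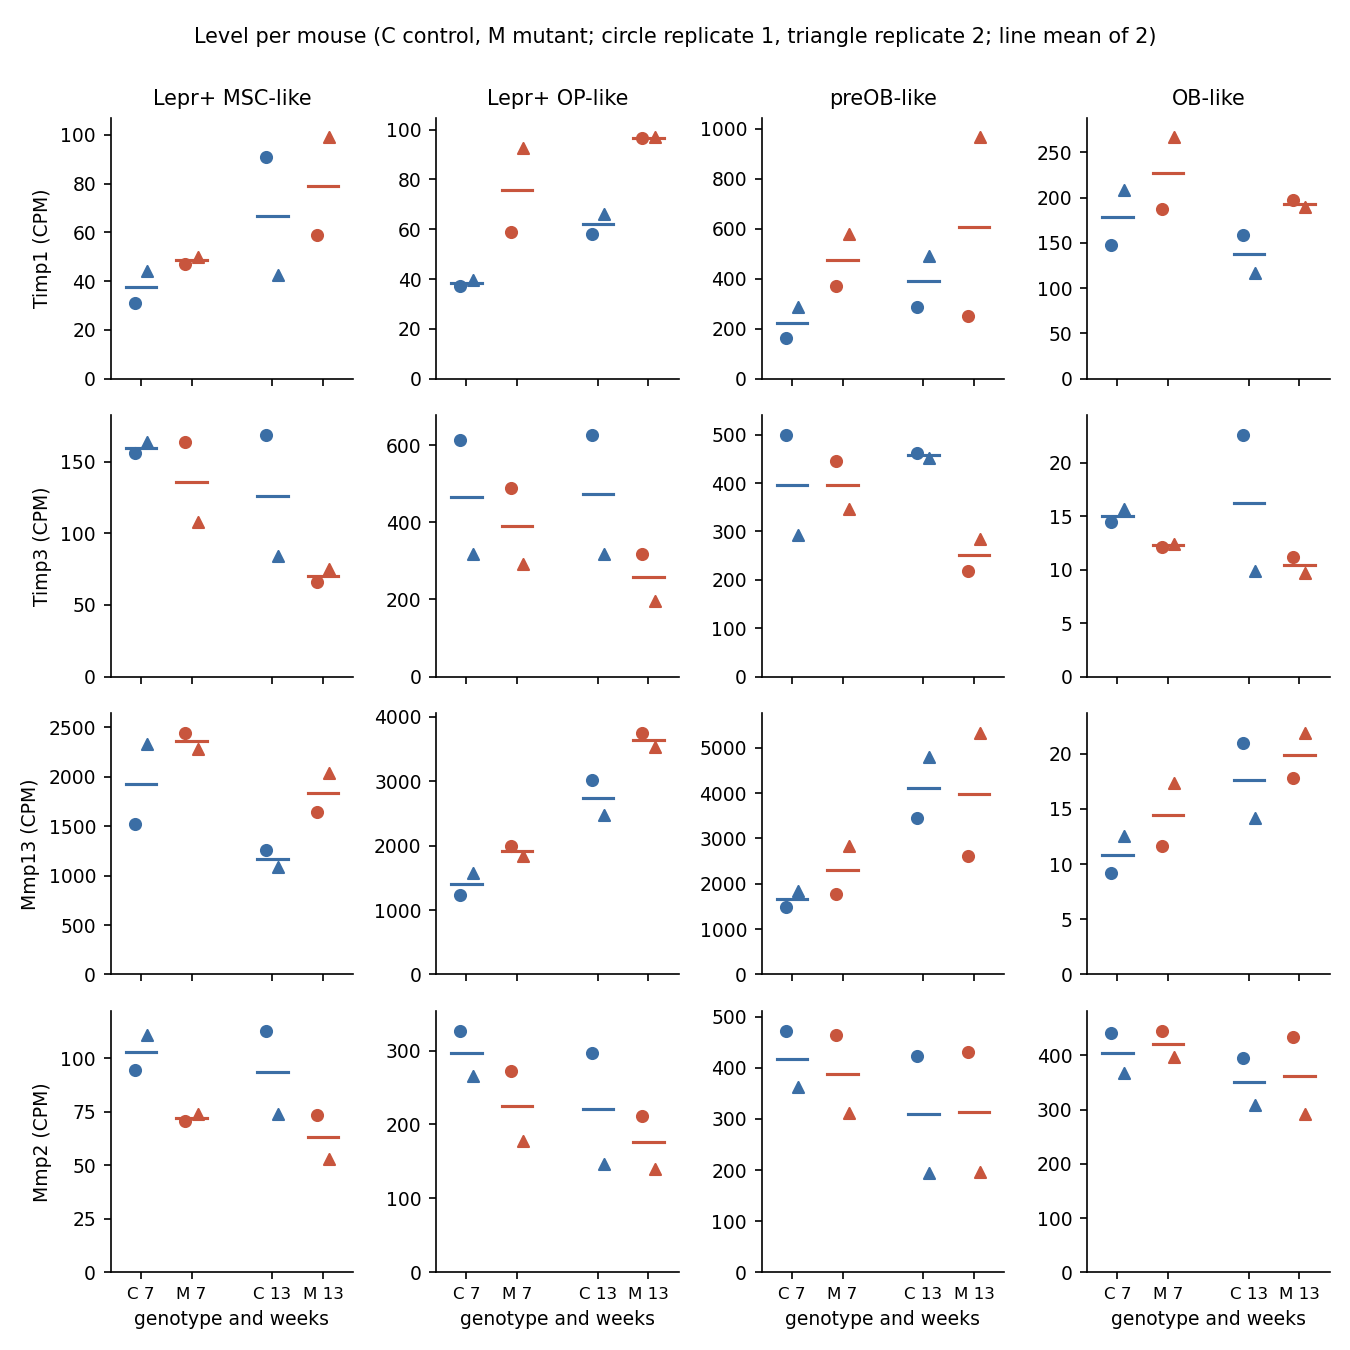
Level in CPM (y axis, from 0) of Timp1, Timp3, Mmp13 and Mmp2 in each mouse, by genotype and weeks of age, in 4 cell types (C, control; M, mutant; circles, replicate 1; triangles, replicate 2; lines, means of 2 mice). In Lepr+ OP-like cells Timp1 lay at 37.3 to 66.1 CPM in the controls and 58.7 to 97.1 CPM in the mutants.

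Timp3 moved the other way in the same cells. In Lepr+ OP-like cells the controls had 613 and 317 CPM at 7 weeks and 627 and 318 CPM at 13 weeks, and the mutants 489 and 292 CPM and 317 and 197 CPM. The replicate 1 mice were higher than the replicate 2 mice in every group, and each mutant was below the control of its own number. The log2 fold change of −0.57 (SE 0.25, adjusted p = 0.59) did not pass without the block and did with it (−0.53, SE 0.11, adjusted p = 0.0023, edgeR). Without single mice it ranged from −0.78 to −0.28, and it was −0.28 and −0.29 without the replicate 1 controls of 13 and 7 weeks. The 8 megakaryocyte markers, 7 over 1 CPM, summed in these cells to 76.1, 27, 102 and 83.1 CPM in the controls. In the mutants they summed to 43.8, 26.9, 46.3 and 52 CPM. Each mutant was below the control of its age and number, though 27 and 26.9 CPM were nearly equal. The GPC markers given with Timp1 were also lower without overlap. Markers of the classes with the most Timp3 went both ways. The 11 endothelial markers summed to 88.5, 129, 86.9 and 46.5 CPM in the controls and 136, 116, 68.2 and 57.7 CPM in the mutants. The 12 hypertrophic GPC markers summed to 176, 103, 127 and 89.1 CPM in the controls and 110, 139, 126 and 92.1 CPM in the mutants. In preOB-like cells the mutants of 13 weeks had 219 and 284 CPM of Timp3 and their controls 463 and 452 CPM, without overlap, and at 7 weeks the values of 446 and 347 CPM lay within the controls' 500 and 292 CPM. The change at 13 weeks was −0.86 (SE 0.27, adjusted p = 0.481) and with the block −0.88 (SE 0.19, adjusted p = 0.0202, edgeR). The megakaryocyte markers in preOB-like cells of 13 weeks summed to 99.4 and 76 CPM in the controls and 55.3 and 52.9 CPM in the mutants. Other lists also parted these mice. Granulocyte or monocyte markers (84 and 132 against 32 and 51.1 CPM) and proliferating preOB markers (53.2 and 59.6 against 30.4 and 26.5 CPM) were lower in the mutants. Osteoclast markers (238 and 225 against 290 and 279 CPM) were higher. The part of these markers in the Timp3 values was not tested. Lepr+ MSC-like cells had 156, 164, 169 and 84.0 CPM in the controls and 164, 108, 65.8 and 75.1 CPM in the mutants (−0.53, SE 0.21, adjusted p = 0.619, edgeR).

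Mmp9 in Lepr+ OP-like cells rested on few cells. The controls had 17.2, 25.9, 22.2 and 0.50 CPM and the mutants 1.49, 1.80, 1.57 and 1.88 CPM, so that 3 controls were above all mutants and the replicate 2 control of 13 weeks was below them. The log2 fold change was −3.07 (SE 0.68, adjusted p = 0.0473, edgeR), and −0.97 (adjusted p = 0.967) without the replicate 1 control of 13 weeks. The call was also lost without the replicate 2 control of 7 weeks or any 1 of the 4 mutants, so that it was kept in 2 of 8 such fits (−3.63 to −0.97). It was lost with DESeq2 (−3.21, adjusted p = 0.238), with a mitochondrial limit of 5% (−3.01, adjusted p = 0.0539) and with no integration (−1.18, adjusted p = 0.711). In UMIs, the controls held 57, 49, 33 and 1 in 13, 5, 10 and 1 cells, out of 361, 344, 153 and 374 cells. A single cell gave 44 of the 49 UMIs of the replicate 2 control of 7 weeks, and single cells gave 27 of 57 and 12 of 33 in the others. The mutants held 3, 4, 2 and 3 UMIs, never more than 1 in a cell. With at most 3 UMIs counted per cell, the controls had 7.38, 4.18, 12.2 and 0.494 CPM and the mutants 1.51, 1.79, 1.61 and 1.81 CPM before TMM scaling, and 3 controls were still above all mutants.

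**Figure D5:**
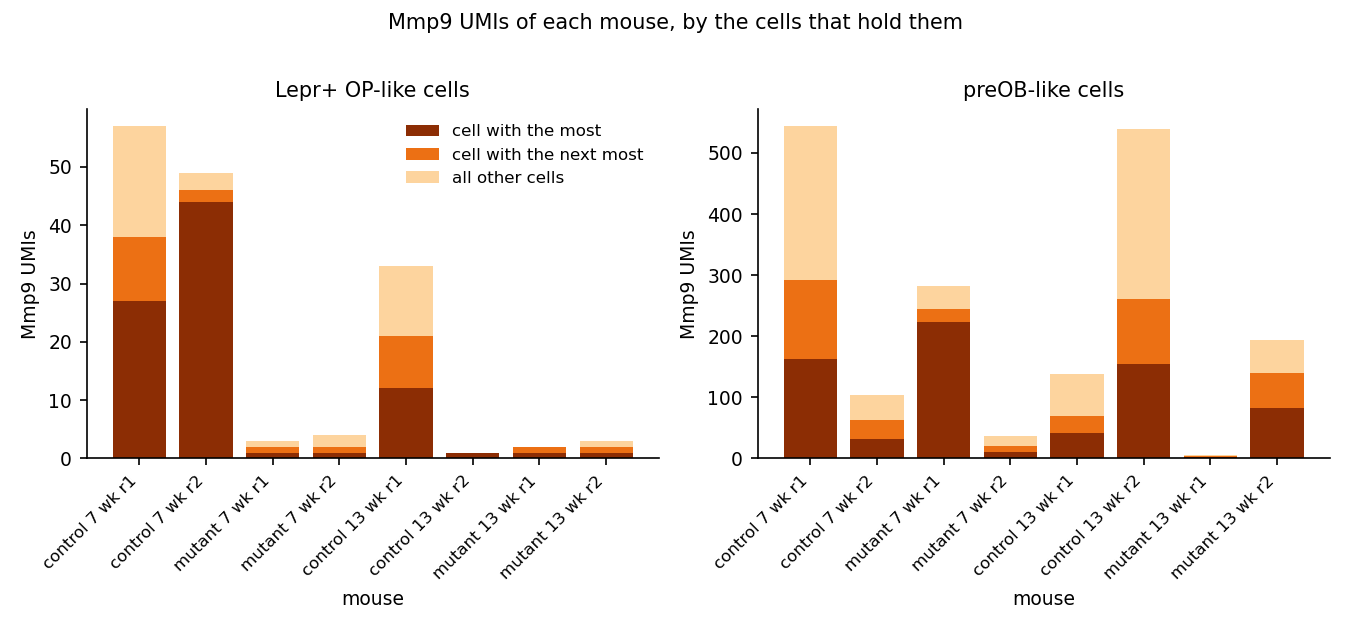
Mmp9 UMIs (y axis) of each mouse in Lepr+ OP-like (left) and preOB-like cells (right), divided into the cell with the most UMIs, the cell with the next most and all others. A single cell held 44 of 49 UMIs in 1 control in Lepr+ OP-like cells and 223 of 282 UMIs in 1 mutant in preOB-like cells.

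In preOB-like cells, where Mmp9 was highest, the mutants had 131, 20.6, 2.71 and 119 CPM against 220, 55.3, 60.7 and 369 CPM in the controls, with overlap. The log2 fold change was −1.33 without a call (SE 0.70, adjusted p = 0.624) and −1.56 with the block (SE 0.20, adjusted p = 3.85e-05, edgeR). Without single mice it ranged from −3.55 to −0.43 with no call. It was −0.43 without the replicate 2 control and −3.55 without the replicate 2 mutant of 13 weeks, −0.84 without the replicate 1 mutant of 13 weeks, and −0.68 without the replicate 1 control and −2.28 without the replicate 1 mutant of 7 weeks. With at most 3 UMIs counted per cell, preOB-like controls had 15.1, 15.4, 14.2 and 44.8 CPM and the mutants 10.2, 13, 2.74 and 8.9 CPM before TMM scaling, without overlap and without a test. Cells with at least 5 Mmp9 UMIs numbered 32 of 1062 in the controls and 10 of 1187 in the mutants, and they held 1254 of 1325 and 483 of 517 UMIs. Of these cells, 4 of 32 and 1 of 10 had a UMI of Acp5 and 24 of 32 and 8 of 10 one of Ctsk, both known as enzymes of osteoclasts, and 27 of 32 and 8 of 10 had one of Cxcl12, a stromal chemokine. Among all 2249 preOB-like cells, with a median of 5817 UMIs, the shares with a UMI were 4.09% for Acp5, 65% for Ctsk and 62% for Cxcl12. In erythroid-like cells, with a median of 24364 UMIs, they were 17.7%, 5.43% and 38.5%, and the part of free RNA in these shares was not tested. The 5 such cells of Lepr+ OP-like controls had no Acp5 UMI, and all 5 had Cxcl12 and Ctsk, as did 96.4% and 71% of all Lepr+ OP-like cells. The summed level of 8 osteoclast markers, of which 3 were over 1 CPM and Dcstamp and Calcr at 0, was 211 to 314 CPM in preOB-like controls and 264 to 302 CPM in mutants, and 231 to 318 and 277 to 311 CPM in Lepr+ OP-like cells. The 12 granulocyte or monocyte markers, 9 over 1 CPM, summed to 81.5 to 132 CPM in preOB-like controls and 24.1 to 51.1 CPM in mutants, lower together with Mmp9. In Lepr+ OP-like cells they summed to 50.3 to 88.1 CPM in the controls and 29.4 to 73.9 CPM in the mutants, with overlap. Their part in these results was not tested. A single cell also held 172 of the 174 Mmp9 UMIs of GPC-like cells in the replicate 2 control of 13 weeks.

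Mmp13 was not called in any type without the block. Lepr+ OP-like cells had 1998 and 1839 CPM in the mutants of 7 weeks against 1232 and 1579 CPM in their controls, and 3753 and 3525 CPM against 3022 and 2469 CPM at 13 weeks. The mutants were above the controls within each age, and over both ages the genotypes overlapped. The log2 fold change was 0.43 (SE 0.17, adjusted p = 0.458) and passed with the block (0.44, SE 0.13, adjusted p = 0.0475, edgeR). In Lepr+ MSC-like cells the mutants had 2446, 2280, 1645 and 2034 CPM and the controls 1521, 2330, 1255 and 1082 CPM, with overlap (0.48, SE 0.17, adjusted p = 0.567, edgeR). In preOB-like cells, the class with the highest control mean of Mmp13, the mutants had 1768, 2844, 2607 and 5336 CPM and the controls 1481, 1835, 3454 and 4794 CPM, with overlap (0.21, SE 0.25, adjusted p = 0.895; with the block 0.16, adjusted p = 0.783, edgeR). At 13 weeks alone the change in preOB-like cells was −0.05 (adjusted p = 0.996, edgeR). Hypertrophic GPC-like cells had 217, 239, 401 and 129 CPM in the controls and 245, 747, 169 and 327 CPM in the mutants, with overlap. In Sca1+ MSC-like cells the controls had 2428, 1590 and 4061 CPM, from 17, 35 and 32 cells. The mutants had 3227, 3117, 7307 and 10154 CPM, with overlap, and each was above the controls of its age. The log2 fold change was 0.89 (SE 0.29, adjusted p = 0.928, edgeR). GPC-like cells had 0.91 (SE 0.27, adjusted p = 1, edgeR), with controls at 6.45 to 26.9 CPM, levels that overlapped those of erythroid-like cells. Pericyte-like cells had 879, 18.7, 22.3 and 41.2 CPM in the controls and 16.5, 97.4, 67.4 and 116 CPM in the mutants. The 879 CPM came from a control with 23 cells, 1 of which held 44 of 53 UMIs, and 3 of 4 mutants were above the other 3 controls. Means were lower in the mutants in endothelial-like (34.6 against 35.6 CPM) and erythroid-like cells (9.98 against 11.8 CPM), both with overlap.

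Mmp2 was lower in Lepr+ MSC-like cells of the mutants, where the controls had 94.7, 111, 113 and 74.2 CPM and the mutants 70.7, 73.9, 73.6 and 52.9 CPM. The groups did not overlap, although the lowest control and the highest mutant differed by little. The log2 fold change was −0.54 (SE 0.17, adjusted p = 0.422), and −0.53 with the block (SE 0.10, adjusted p = 0.0408, edgeR). The highest levels of Mmp2, in Sca1+ MSC-like cells, overlapped between genotypes, as did those in OB-like cells.

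Levels did not overlap between genotypes in 3 of 112 pairs, beside 3.47% of all genes, a share near that background. They were Mmp2 in Lepr+ MSC-like, Adamts1 in pericyte-like and Mmp16 in endothelial-like cells. Adamts1 in pericyte-like cells was at 912, 928, 1056 and 764 CPM in the controls and 599, 700, 219 and 349 CPM in the mutants (log2 fold change −1.11, SE 0.27, adjusted p = 0.325, edgeR). The mutant with 219 CPM rested on 12 cells, and the 16 OB markers in pericyte-like cells summed to 2096 to 5044 CPM in the controls and 177211 CPM in this mutant. The 13 Sca1+ MSC markers, 8 over 1 CPM, summed there to 2173 to 3161 CPM in the controls and 3390 to 3928 CPM in the mutants. They were higher without overlap, and the part of these markers was not tested. Mmp16 in endothelial-like cells was at 4.43 to 6.12 CPM in the controls and 0 to 4.42 CPM in the mutants (−1.66, SE 0.56, adjusted p = 1, edgeR), at levels of few UMIs. In OB-like cells, its highest class, Mmp16 was at 120, 108, 123 and 111 CPM in the controls and 103, 100, 118 and 92.5 CPM in the mutants, with overlap, and each mutant was below the control of its age and number (−0.16, SE 0.11, adjusted p = 0.697; with the block −0.16, SE 0.06, adjusted p = 0.116, edgeR). Within 7 OB-like clusters, leaving out cluster 31 with its 1 cell, unscaled levels did not overlap between genotypes in 7 of 70 pairs of member and cluster, beside 5.62% of the genes tested in OB-like cells, and these are a description. They were Mmp16 in clusters 1, 2 and 20 (lower in the mutants), Adamts1 and Timp3 in cluster 0 and Mmp9 in cluster 2 (lower), and Adamts5 in cluster 2 (higher). Mmp9 in cluster 2 was at 0.209 to 0.396 CPM in the controls and 0.0706 to 0.205 CPM in the mutants, at levels of few UMIs. In Lepr+ MSC-like cells Mmp16 was at 6.71, 3.97, 6.27 and 5.16 CPM in the controls and 17, 5.37, 17.8 and 10.3 CPM in the mutants, with overlap (1.13, SE 0.35, adjusted p = 0.403, edgeR). Mmp14, Timp2 and Adamts5 had no call in any type with or without the block, and their control and mutant ranges overlapped in all 12 types.

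At single ages, 2 mice were compared with 2 and the spread came from all 8. No member was called at 7 or 13 weeks by edgeR, beside 0.0362% and 0.0715% of all genes called. At each age 16 pairs had an unadjusted p under 0.05, without a share of all genes beside them, and DESeq2 called none. The blocked fit of the 7 paired types called 3 pairs at 7 weeks and 5 at 13 weeks, beside 0.715% and 0.899% of all genes. At 7 weeks these were Timp1 in Lepr+ OP-like (0.93, adjusted p = 0.00149) and preOB-like cells (1.11, adjusted p = 0.0111, edgeR) and Mmp9 in Lepr+ OP-like cells (−3.66, adjusted p = 7.72e-05, edgeR). At 13 weeks they were Timp1 in Lepr+ OP-like (0.64, adjusted p = 0.0489) and OB-like cells (0.50, adjusted p = 0.0262, edgeR), Timp3 in Lepr+ OP-like (−0.84, adjusted p = 0.00211) and preOB-like cells (−0.88, adjusted p = 0.0202, edgeR), and Mmp9 in preOB-like cells (−2.16, adjusted p = 0.000179, edgeR). No member was called for a difference of the genotype effect between ages (edgeR; 10 pairs at an unadjusted p under 0.05, none by DESeq2), beside 0.000883% of all genes, which does not show that the effects were alike. With no filter on low counts 5 pairs were called, without the replicate 2 control of 13 weeks 3, and without the replicate 2 control of 7 weeks or the replicate 2 mutant of 13 weeks 1 each. The lowest of these unadjusted values was that of Mmp13 in GPC-like cells (−2.21, SE 0.55, adjusted p = 1, edgeR), where the mutants of 7 weeks had 38.6 and 16.6 CPM and their controls 7.64 and 6.45 CPM, levels at which these controls overlapped erythroid-like cells.

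The ages were compared next, over the same mice. Between 13 and 7 weeks, over both genotypes, edgeR called 5 of 112 pairs (2 higher and 3 lower), beside 1.98% of all genes over the 12 types. An unadjusted p under 0.05 was found for 35 pairs and DESeq2 called 10, without a share of all genes beside them. The shares of all genes called were 2.62% in preOB-like, 0.991% in Lepr+ OP-like, 3.11% in endothelial-like and 8.01% in hypertrophic GPC-like cells, the types with a member called. They were 1.82% in OB-like, 0.374% in Lepr+ MSC-like, 0.0217% in Sca1+ MSC-like, 2.73% in GPC-like, 0.0338% in pericyte-like and 0.0208% in haematopoietic progenitor-like cells, and 0% in proliferating preOB-like and erythroid-like cells. Levels did not overlap between the ages in 15 of 112 pairs, beside 8.14% of all genes. The ages cannot be told apart from litters or days of collection.

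Mmp13 was higher at 13 weeks in the osteoprogenitors. In Lepr+ OP-like cells the 4 mice of 7 weeks had 1232, 1579, 1998 and 1839 CPM and the 4 of 13 weeks 3022, 2469, 3753 and 3525 CPM, without overlap (log2 fold change 0.94, SE 0.17, adjusted p = 0.0127, edgeR). The call held without each mouse in turn (0.86 to 1.03) and was lost when cells over 5% mitochondrial UMIs were left out (0.61, adjusted p = 0.199). In preOB-like cells the values were 1481, 1835, 1768 and 2844 CPM and 3454, 4794, 2607 and 5336 CPM, with 1 older mouse below the highest younger one (1.05, SE 0.25, adjusted p = 0.0357, edgeR); without each mouse it ranged from 0.75 to 1.27 and kept its call in 3 of 8 fits. The call was lost without either control of 7 weeks, the replicate 2 control of 13 weeks, the replicate 1 mutant of 7 weeks or the replicate 2 mutant of 13 weeks, and with the 5% limit (0.60, adjusted p = 0.474). Lepr+ MSC-like cells had 1521, 2330, 2446 and 2280 CPM at 7 weeks and 1255, 1082, 1645 and 2034 CPM at 13 weeks, the opposite direction (−0.54, SE 0.17, adjusted p = 0.34, edgeR), and the difference between the classes was not tested. The 15 Lepr+ MSC markers, all over 1 CPM, summed in Lepr+ OP-like cells to 9741, 10556, 10891 and 13939 CPM at 7 weeks and 15013, 18781, 16567 and 17433 CPM at 13 weeks, higher together with Mmp13. The 11 endothelial markers, all over 1 CPM, summed there to 88.5 to 136 CPM and then 46.5 to 86.9 CPM, lower without overlap. The part of both lists was not tested. In preOB-like cells the Sca1+ MSC markers summed to 2147, 2159, 3093 and 2511 CPM at 7 weeks. At 13 weeks they summed to 697, 802, 1436 and 623 CPM, lower without overlap where Mmp13 was higher. Col3a1, 1 of these markers, held 1831, 1775, 2750 and 2044 CPM and then 432, 509, 1149 and 191 CPM, so the fall was largely that of this gene. The 12 GPC markers in preOB-like cells summed to 360, 464, 336 and 372 CPM and then 237, 271, 242 and 182 CPM, also lower without overlap. The part of these markers was not tested.

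Mmp14 was called lower at 13 weeks in hypertrophic GPC-like and endothelial-like cells. In hypertrophic GPC-like cells it was at 33.6, 37.6, 22.5 and 22.2 CPM at 7 weeks and at 17.1, 12.6, 16.1 and 13.8 CPM at 13 weeks, without overlap (−0.90, SE 0.15, adjusted p = 0.00406, edgeR), and the call held without each mouse in turn. These levels overlapped those of Mmp14 in erythroid-like (19 to 30.5 CPM) and haematopoietic progenitor-like cells (11 to 22.4 CPM), and the part of free RNA in them was not tested. In the same class the 12 hypertrophic GPC markers summed to 28563, 30970, 34934 and 38302 CPM at 7 weeks and 22596, 25726, 21738 and 19601 CPM at 13 weeks. The 11 endothelial markers, 9 over 1 CPM, summed to 26.6, 43.3, 35.5 and 61.3 CPM and then 19.4, 20.5, 15.7 and 16.7 CPM. Both sums were lower at 13 weeks without overlap, as was that of the 5 muscle markers (53.5 to 88.2 and then 13.1 to 39.8 CPM). Higher without overlap were the 8 megakaryocyte markers (7.99 to 30.4 and then 41.6 to 67.4 CPM) and the 8 osteoclast markers (171 to 240 and then 263 to 392 CPM). The part of these markers was not tested. With no integration the change was −1.99 (adjusted p = 0.000535, edgeR), in a class of 786 instead of 2535 cells. Endothelial-like cells had 191, 211, 200 and 228 CPM and then 136, 168, 117 and 139 CPM, also without overlap (−0.58, SE 0.15, adjusted p = 0.046, edgeR), but the call was lost without any 1 of the 8 mice (−0.67 to −0.51). In endothelial-like cells the 6 macrophage markers, 2 over 1 CPM, summed to 303 to 613 CPM at 7 weeks and 156 to 222 CPM at 13 weeks. The 10 Lepr+ OP markers summed to 1924 to 2427 and then 1422 to 1620 CPM, both lower without overlap. Higher without overlap were the Sca1+ MSC markers (642 to 889 and then 1520 to 2299 CPM) and the haematopoietic progenitor markers (683 to 807 and then 810 to 985 CPM). The part of these markers was not tested. GPC-like cells were not called (−0.69, SE 0.17, adjusted p = 0.051, edgeR). Levels of Mmp14 also did not overlap between ages, without a call, in OB-like cells (133, 133, 115 and 141 CPM at 7 weeks and 108, 108, 104 and 97.7 CPM at 13 weeks; −0.32, SE 0.10, adjusted p = 0.159) and in pericyte-like cells (216, 221, 132 and 177 CPM and then 93.6, 125, 84.3 and 77.5 CPM; −0.99, SE 0.29, adjusted p = 0.342, edgeR). The difference between the classes was not tested.

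Adamts5 in endothelial-like cells was at 579, 413, 948 and 580 CPM at 7 weeks and at 248, 336, 296 and 387 CPM at 13 weeks, without overlap (−0.96, SE 0.19, adjusted p = 0.0159, edgeR). The call was lost in the 4 fits that left out a replicate 1 mouse, and the change ranged from −1.14 to −0.77 over all 8 such fits. The share of endothelial-like cells in cluster 6, where Adamts5 was high, was 80.6%, 85.0%, 91.6% and 84.9% at 7 weeks and 60.9%, 70.6%, 62.0% and 68.5% at 13 weeks. Within cluster 6 the values were 689, 478, 1059 and 668 CPM at 7 weeks and 373, 431, 475 and 502 CPM at 13 weeks, so that 1 younger mouse lay below 1 older mouse. Mmp14 within cluster 6 was at 211, 227, 219 and 249 CPM and 174, 201, 156 and 163 CPM, without overlap. The markers of other cells that differed between ages in endothelial-like cells, given with Mmp14, stand beside Adamts5 too. Their part in the Adamts5 values was not tested.

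Other genes of the pathway were read from lists of related genes, over both ages. Of the other MMPs, 10 of 16 genes were tested in 42 pairs of gene and type, and 1 was called: Mmp11, stromelysin 3, was at 0.982, 1.67, 1.32 and 1.70 CPM in OB-like controls and 0.608, 0.649, 0.664 and 0.583 CPM in mutants (−1.16, SE 0.23, adjusted p = 0.0419, edgeR). Of the other ADAMTS genes, 12 of 17 were tested in 76 pairs and 1 was called: Adamts7 in OB-like cells was at 2.18, 3.21, 2.47 and 1.98 CPM in controls and 1.31, 1.54, 0.821 and 0.928 CPM in mutants (−1.14, SE 0.18, adjusted p = 0.02, edgeR). In OB-like cells both genes were low in all mice, and neither overlapped between genotypes, as for 888 of 14654 genes there. Mean Mmp11 was higher in Lepr+ MSC-like (controls 20.3, mutants 19.6 CPM) and pericyte-like cells (25.1 and 46.4 CPM), both with overlap. Mean Adamts7 was highest in endothelial-like cells (25.5 and 20.3 CPM, with overlap). Adamts7 was also lower in mutants without overlap in preOB-like (4.77 and 0.945 CPM), Lepr+ OP-like and Lepr+ MSC-like cells. The part of free RNA in the OB-like values was not tested.

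No other inhibitor (5 genes, 44 pairs; 11 at an unadjusted p under 0.05), activator of proenzymes (8 of 9 genes, 69 pairs; 3), uptake or collagen receptor (5 genes, 56 pairs; 6) or factor known at the Mmp13 promoter, Runx2 and AP-1 genes among them (12 genes, 137 pairs; 20), was called by edgeR. In the 7 paired types, the blocked fit called 3 of 26, 2 of 47, 1 of 32 and 6 of 81 pairs of these lists, 2 of 29 of the other MMPs and 7 of 53 of the other ADAMTS genes, beside 2.64% of all genes. Of 8 substrates, 2 of 90 pairs were called, and 7 of 53 with the block. Vcan, which encodes versican, a proteoglycan cut by ADAMTS1 and ADAMTS5, was at 331, 384, 85.5 and 74.6 CPM in Lepr+ OP-like controls and 165, 145, 57.3 and 23.2 CPM in mutants, lower in each mutant than in the controls of its age (−1.11, SE 0.20, adjusted p = 0.0142, edgeR). Col3a1, which encodes collagen type III, was at 53.3, 52.8, 14.4 and 19.1 CPM in OB-like controls and 91.1, 114, 72.7 and 29.6 CPM in mutants, with overlap (1.28, SE 0.24, adjusted p = 0.0344, edgeR). Col3a1 is itself 1 of the 13 Sca1+ MSC markers and a large part of their sum in OB-like cells. That sum, given with Timp1, is thus not separate from this call, and the part of other cells in it was not tested. The lists' median log2 fold changes were −0.07 to 0.22, beside −0.04 to 0.02 for all genes by type. Between 13 and 7 weeks, beside 1.98% of all genes, 5 of 44 pairs of the other inhibitors (4 higher), 3 of 69 of the activators (1 higher), 0 of 56 of the receptors, 3 of 137 of the factors (all higher), 3 of 42 of the other MMPs (2 higher) and 3 of 76 of the other ADAMTS genes (all lower) were called by edgeR. Of the substrates, 9 of 90 pairs were called, all lower, among them Vcan in preOB-like (−2.88, adjusted p = 6.78e-05) and Lepr+ OP-like cells (−2.07, adjusted p = 0.000191, edgeR).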

How the data were processed

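Single-cell RNA-seq was performed on 8 libraries, 1 per mouse (2 per genotype and age). Each deposited matrix held UMI counts of genes by barcodes, not normalised; the authors used Cell Ranger 6.1.2 and mm10 per the submitters' notes. Doublets were said by the methods to be removed in the study, and the matrices, which held 12086 to 14151 barcodes each, were filtered here again. Cells with 200 to 6000 genes and at most 10% mitochondrial UMIs were kept, and barcodes most like simulated doublets were left out at a rate of 0.8% per 1000 barcodes. Libraries were integrated by reciprocal PCA (Seurat 5.3.0; 2000 variable genes, 30 components) and clustered (leidenalg 0.10.2, resolution 1), with no Mmp, Adamts, Adam or Timp gene among the variable genes or markers. A cluster was named from listed markers, and the details of that rule were settled after the clusters were seen. Shallow clusters, with a median UMI count below 33.3% of that of the libraries (10184 cells), and 1643 other cells were left unnamed, and 345 lymphocyte-like cells were not tested.

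UMIs were summed per mouse and type (at least 10 cells) and tested over all genes with edgeR 4.0.16 (filterByExpr, TMM, quasi-likelihood F test, 4 group means, Benjamini-Hochberg threshold 0.05). DESeq2 1.42.0 and the alternatives of the closing section were also run. In simulated data, 200 genes were changed by a log2 fold change of 1 or −1. The fits recovered 81.5% of them in OB-like, 67.5% in Lepr+ MSC-like, 75.5% in preOB-like and 3.5% in Sca1+ MSC-like cells. False calls numbered 21, 5, 9 and 0. A lack of calls in Sca1+ MSC-like cells thus says little. Mice of equal age and replicate number deviated together in 7 of 12 types (r 0.131 to 0.406). In GPC-like, hypertrophic GPC-like and pericyte-like cells some correlation was under 0.1, and 2 types had a value at 1 age only. The text names all 10 members, the listed pathway genes called over both ages, and the 3 genes most like each member. The members and lists were chosen with earlier results of these data known. Coordinates are GENCODE vM21 (GRCm38), and promoters are RefSeq (GRCm38.p6). Intervals of counting were not computed, since the spread between mice is given.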

Additional observations from a re-analysis of the deposited data

How the results depend on the processing

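No single-gene change reversed direction in 187 alternative fits. These fits covered only changes already called in the main fit or with the replicate block. Changes chosen by a call in the same data are unlikely to reverse, and the directions of the other pairs were not compared. Over both ages the 2 member calls became 11 with no filter on low counts, 1 with DESeq2, 8 with the replicate block, 1 with a mitochondrial limit of 5%, 0 with no integration and 0 to 3 without single mice. The 0 calls at 7 weeks became 8 with no filter, 3 with the replicate block, 1 with no integration and 0 to 1 without single mice. The 0 calls at 13 weeks became 7 with no filter, 5 with the replicate block, 1 with the 5% limit and 0 to 3 without single mice. The 0 calls for the difference between ages became 5 with no filter and 0 to 3 without single mice, and stayed at 0 with the replicate block. The 5 calls between ages became 19 with no filter, 10 with DESeq2, 2 with the 5% limit, 8 with no integration and 3 to 6 without single mice. Apart from the replicate block, the share of all genes called in each of these settings was not set beside the counts. They describe the settings and are no result about these genes. The cause was not tested. Of the 187, 139 kept their side of the threshold, 37 lost the call and 11 gained it. These counts pool changes called in the main fit with changes not called there. Only the former could lose a call, so all 37 losses fell on them. Many of the 139 were uncalled changes that stayed uncalled, and the 139 are thus no measure of how stable the calls were. Timp1 in Lepr+ OP-like cells ranged from 0.62 to 1.37 (adjusted p 7.72e-05 to 0.456). Fits without a mouse assume that the lone mouse left in its group varies like the others. Clustering with no integration gave no preOB-like class, and its classes did not hold the same cells. Lepr+ OP-like cells numbered 4635 instead of 2400, hypertrophic GPC-like cells 786 instead of 2535 and GPC-like cells 3743 instead of 1994. The replicate block, for which no label states a pairing, changed no call other than those given with it, and replicate 1 libraries were also the deeper ones. Depth limits low values such as those of Mmp16 in endothelial-like cells, and depth-matched counts were not compared.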

Other observations

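Clusters left unnamed for their low depth also held the members. Cluster 12 (2135 cells), led by Cxcl12 and Adipoq, had 1828 ± 445 CPM of Mmp13 (SD over 8 mice), 386 ± 66.6 CPM of Timp2 and 204 ± 133 CPM of Timp1. In cluster 15 (1712 cells), led by Snorc and Col10a1, Mmp13 ranged from 78.7 to 8252 CPM between mice. Timp3 was at 536 ± 537 CPM in cluster 25 (350 cells, 7 mice), led by Ppbp and Pf4, genes of platelets.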
